A study of Mus musculus with 32 samples.

Results

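Complexes II, III, IV and V of the respiratory chain, with cytochrome c, were followed in the hearts of mice exposed to an aggressor. The genes were chosen by name: every non-control probe whose gene name is Sdha, Sdhb, Sdhc, Sdhd, Cyc1 or Cycs, or starts with Uqcr, Atp5 or Cox4 to Cox8. That gave 75 of the 55681 probes and 50 of the 36409 named genes. They comprise 4 subunits of complex II, 9 of complex III, cytochrome c, 17 of complex IV and 15 of complex V. The other 4 genes share the letters of the name without being subunits: Cox7a2l, a supercomplex assembly factor, Cox4nb (current symbol Emc8), Atp5s (Dmac2l) and Atp5sl (Dmac2). The array also calls the stalk subunit Atp5pb by its older name Atp5f1. Measured on the arrays were 74 of the 75 probes and 49 of the 50 genes, out of 27532 genes tested. Cox8c, the testis isoform of subunit 8, was well above background on 1 of 32 arrays and was not tested.

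The 32 C57BL/6 mice fell into 8 groups of 4. Stressed mice spent part of each day for 5 days (T5) or 10 days (T10) in a mesh box inside an aggressor's cage, where they could be bitten, followed by a rest of 1, 10 or 42 days (R1, R10, R42). Controls were kept in the same boxes in a cage with no aggressor, with the same exposure and rest times, so that T5R1, T5R10, T10R1 and T10R42 each had 4 stressed and 4 control mice. The labels name no transgene, drug or age for any group, and RNA came from the heart of 1 mouse per array. The heart label was checked against its markers: all 15 cardiomyocyte markers were well above background on all 32 arrays.

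Complex II oxidises succinate to fumarate and hands the electrons to ubiquinone. Complex III passes them on to cytochrome c, a small soluble carrier, and complex IV, cytochrome c oxidase, delivers them to oxygen, while complexes III and IV pump protons that drive the ATP synthase, complex V. Heart muscle is densely packed with mitochondria, and several subunits of complex IV have a heart and muscle isoform that replaces the ubiquitous one during development. All the genes named here are nuclear, and the subunits encoded by mitochondrial DNA are not among them.

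The following probes are shown because the isoform comparison, the Atp5c1 result and the values of Uqcrc1, lower without overlap in both T5R1 and T10R1, rest on them. They are copied from the array design with positions on mouse build mm9, and 30 bases are printed of probes that may lie in an untranslated region.
Cox4i1, chr8:123197924-123197983, plus strand: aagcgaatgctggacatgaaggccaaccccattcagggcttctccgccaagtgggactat
Cox7a1, chr7:30970337-30970948, plus strand, across an exon boundary: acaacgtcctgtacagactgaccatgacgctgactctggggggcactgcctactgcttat
Cox7a2, chr9:79603215-79603274, minus strand, 30 of 60 bases: ctttggggatcaatatttattgatgtgtat
Cox6a2, chr7:135349160-135349219, minus strand, 30 of 60 bases: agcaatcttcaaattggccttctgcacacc
Cox6a1, chr5:115795726-115795785, minus strand, 30 of 60 bases: ggaccacgaaaaccctttggatgctaagct
Uqcrc1, chr9:108851008-108851487, plus strand, across an exon boundary: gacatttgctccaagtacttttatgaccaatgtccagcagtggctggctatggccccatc
Atp5c1, brighter probe, chr2:9977665-9977724, minus strand, 30 of 60 bases: ccactgagttacaaaggcagcaggatgttt
Atp5c1, second probe, chr2:9977788-9980644, minus strand, across an exon boundary, 30 of 60 bases: tcatctctgggactgctgctctggattaat

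Values below are log2 signals relative to the 75th percentile of their own array, so that 1 unit is a doubling, and a change is the stressed mean minus the control mean. Quantile normalisation, which forces every array to one distribution of signals, was run beside it. These genes lie at the bright end of the arrays, with 43 of the 49 tested genes in the brightest 5% (1377 genes) and 25 in the brightest 1% (276 genes). Of the 49 genes, 48 were well above background on all 32 arrays, and none of their values was saturated. The exception was Cox7b2, the testis isoform of subunit 7b, which was well above background on 17 of 32 arrays, on 1 of 4 stressed and 0 of 4 control arrays of T5R1, so it has only a bound there. The 75th percentile signal ran from 237.2 to 498.9 and the number of probes well above background from 28792 to 40672 over the arrays. Within T5R1 the 75th percentile signal was 498.9, 498.7, 346.4 and 418.3 in the stressed mice and 348.4, 345.9, 385.8 and 362.3 in the controls. Each slide carried the 8 arrays of 1 condition, always with stressed mice in the last 2 columns and controls in the first 2 columns, so array column and stress cannot be told apart. In whole hearts, fewer cells of a type and less RNA per cell cannot be told apart either.

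In T5R1, 1 day after 5 days of exposure, subunits of complexes II to V were lower in stressed than in control hearts under 75th percentile scaling. By limma with Benjamini-Hochberg adjustment over all tested genes, 17 of 49 genes fell and 0 rose, where 8.43% of all tested genes were called lower and 5.3% higher. All 17 were subunits: 2 of 4 in complex II, 4 of 9 in complex III, 5 of 16 in complex IV and 6 of 15 in complex V, while cytochrome c and the 4 other genes were not called. The median change was -0.23 over the 49 genes and -0.12 over all tested genes. Of the 49 genes 45 were measured lower (91.8%), against 66.6% of all tested genes. In 22 of the 49 genes every stressed array lay below every control array, 44.9% of them, against 15.7% of all tested genes. Under quantile normalisation 1 of the 49 genes fell, Cox7a1, where 4.01% of all tested genes were called lower and 6.97% higher. The stressed arrays then lay below the controls without overlap in 6 of the 49 genes (12.2%), against 9.81% of all tested genes. The median was -0.02 over the 49 genes and -0.03 over all tested genes, and 16 genes measured lower under 75th percentile scaling were measured higher. The size of the change, its direction in those 16 genes and the number of genes called thus depended on the scaling.

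**Figure D1:**
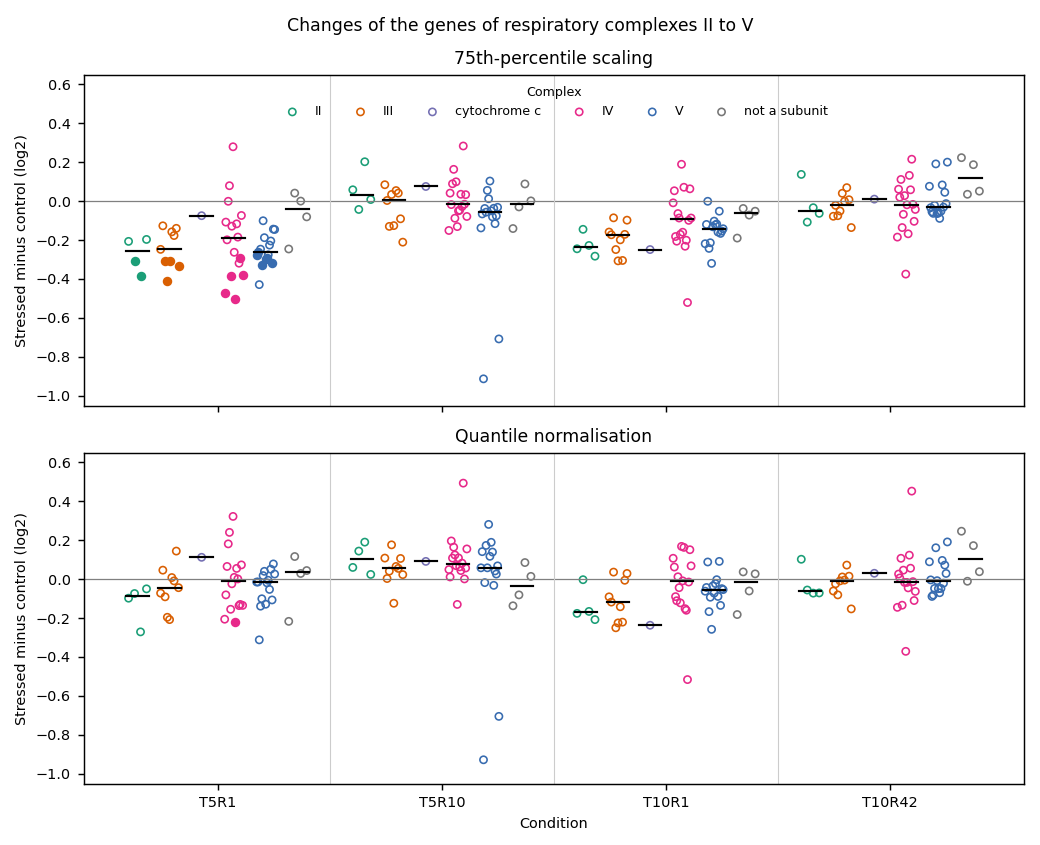
Stressed minus control change (log2) of each of the 49 genes in the 4 conditions, with 75th percentile scaling in one panel and quantile normalisation in the other. Each circle is 1 gene coloured by complex, filled circles passed the test at an adjusted p below 0.05, and black bars are medians. In T5R1 the points centre on -0.23 under 75th percentile scaling with 17 filled, and on -0.02 under quantile normalisation with 1 filled.

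The complex II genes are the subunits of succinate dehydrogenase, which also serves the citrate cycle. Sdhc, a membrane anchor, measured 5.72, 5.88, 5.75 and 5.97 in the stressed hearts and 6.34, 6.15, 6.31 and 6.06 in the control hearts. All 4 stressed hearts lay below all 4 controls, and Sdhc fell by 0.39 ± 0.12 (SE, n = 4 each, limma adjusted p = 0.0263). The second Sdhc probe changed by -0.08. Sdhb, the iron-sulfur subunit, measured 8.27, 8.50, 8.80 and 8.65 in the stressed hearts and 8.83, 8.90, 8.79 and 8.94 in the control hearts. Stressed replicate 3 lay above the lowest control, and Sdhb fell by 0.31 ± 0.10 (limma adjusted p = 0.0309). Sdha, the flavoprotein that binds succinate, measured 6.22, 6.49, 6.46 and 6.54 in the stressed hearts and 6.67, 6.67, 6.60 and 6.60 in the control hearts. Sdhd, the other anchor, measured 7.28, 7.38, 7.36 and 7.34 in the stressed hearts and 7.63, 7.42, 7.59 and 7.50 in the control hearts. In both genes the groups did not overlap, but the changes of -0.21 (limma adjusted p = 0.103) and -0.20 (limma adjusted p = 0.156) did not pass the test.

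In complex III the called genes were Uqcrc1, Uqcr11, Uqcrq and Uqcrb, and the median over its 9 genes was -0.25. Uqcrc1, a core protein on the matrix side, measured 6.07, 6.29, 6.46 and 6.54 in the stressed hearts and 6.70, 6.67, 6.58 and 6.64 in the control hearts. Uqcr11, a small subunit, measured 8.14, 8.28, 8.54 and 8.54 in the stressed hearts and 8.68, 8.71, 8.69 and 8.66 in the control hearts. Uqcrq, also a small subunit, measured 8.56, 8.73, 9.08 and 8.94 in the stressed hearts and 9.19, 9.22, 9.09 and 9.15 in the control hearts. In each of these 3 genes the stressed hearts were all below the controls and stressed replicate 1 was the lowest. Uqcrc1 fell by 0.31 ± 0.08 (limma adjusted p = 0.0135), Uqcr11 by 0.31 ± 0.09 (adjusted p = 0.0153) and Uqcrq by 0.34 ± 0.09 (adjusted p = 0.0155). Uqcrb fell by 0.41 ± 0.13 (limma adjusted p = 0.0389), and its 3 probes ranged from -0.54 to -0.19. Cyc1, cytochrome c1, changed by -0.25 (limma adjusted p = 0.0637). Cycs, the cytochrome c that shuttles between complexes III and IV, changed by -0.08 (limma adjusted p = 0.658), and its 3 probes ranged from -0.32 to -0.04. Under quantile normalisation Cycs was measured higher, by 0.11.

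The 4 members with the smallest p-values in T5R1 were all subunits of complex IV. Cox4i1, the ubiquitous isoform of subunit 4, measured 8.63, 8.70, 8.79 and 8.90 in the stressed hearts and 9.25, 9.24, 9.25 and 9.17 in the control hearts. Its highest stressed value was below its lowest control value, and it averaged 8.76 ± 0.12 in stressed hearts and 9.23 ± 0.04 in control hearts (SD, n = 4 each). The signal fell by 27.9% (limma adjusted p = 6.43e-05). Cox7a1, the heart and muscle isoform of subunit 7a, measured 8.80, 8.91, 9.24 and 9.22 in the stressed hearts and 9.57, 9.58, 9.56 and 9.48 in the control hearts. Its signal fell by 29.5% (limma adjusted p = 0.000663). Under quantile normalisation Cox7a1 measured 17.62, 17.68, 17.67 and 17.83 in the stressed hearts and 17.95, 17.90, 17.99 and 17.84 in the control hearts. The groups stayed apart by a narrow gap there, and Cox7a1 fell by 0.22 (limma adjusted p = 0.0318). With the brightest probe of each gene, Cox7a1 was the 1 member that passed under both scalings in the fit over all arrays. Some dimmer probes also passed under both scalings when tested probe by probe. A Cox7c probe changed by -0.50 (limma adjusted p = 0.00015), and by -0.36 under quantile normalisation (adjusted p = 0.000295). A Uqcr10 probe changed by -0.37 (limma adjusted p = 0.00322), and by -0.28 under quantile normalisation (adjusted p = 0.0269). The other probes of both genes did not pass under quantile normalisation. Under quantile normalisation without the 8 T5R10 arrays, a choice made after seeing the data, Cox7a1 missed the threshold (limma adjusted p = 0.0541). Cox6a2, the heart and muscle isoform of subunit 6a, measured 9.42, 9.58, 9.84 and 9.82 in the stressed hearts and 10.03, 10.09, 10.04 and 10.04 in the control hearts. Cox8b, the heart and muscle isoform of subunit 8, measured 8.24, 8.40, 8.73 and 8.67 in the stressed hearts and 8.93, 8.92, 8.85 and 8.86 in the control hearts. Neither gene overlapped between groups, and Cox6a2 fell by 0.39 ± 0.09 (limma adjusted p = 0.00449) and Cox8b by 0.38 ± 0.09 (limma adjusted p = 0.00477).

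The fifth called gene of complex IV was Cox7c, which fell by 0.29 ± 0.09 (limma adjusted p = 0.0248), and its 3 probes ranged from -0.50 to -0.11. Cox5a, a subunit on the matrix side, changed by -0.20 (limma adjusted p = 0.0579), and Cox5b, the zinc-binding subunit, by -0.001 (limma adjusted p = 0.996). Under quantile normalisation both were measured higher, Cox5a by 0.07 and Cox5b by 0.18. Cox6b2, the testis isoform of subunit 6b, was the member with the largest measured increase, at 0.28 (limma adjusted p = 0.258). It measured -0.58, -0.50, 0.55 and -0.44 in the stressed hearts and -0.63, -0.50, -0.47 and -0.48 in the control hearts, so that stressed replicate 3 alone stood apart. The other members measured higher were Cox6a1 at 0.08, Atp5sl, named for ATP synthase and known as a complex I assembly factor, at 0.04, and Cox4nb, the gene next to Cox4i1, at 0.00. Atp5sl measured 3.71, 3.96, 4.19 and 3.98 in the stressed hearts and 4.01, 3.91, 3.89 and 3.85 in the control hearts. Cox4nb measured 0.55, 0.33, 0.38 and 0.67 in the stressed hearts and 0.61, 0.49, 0.46 and 0.37 in the control hearts. In both the groups overlapped.

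**Figure D2:**
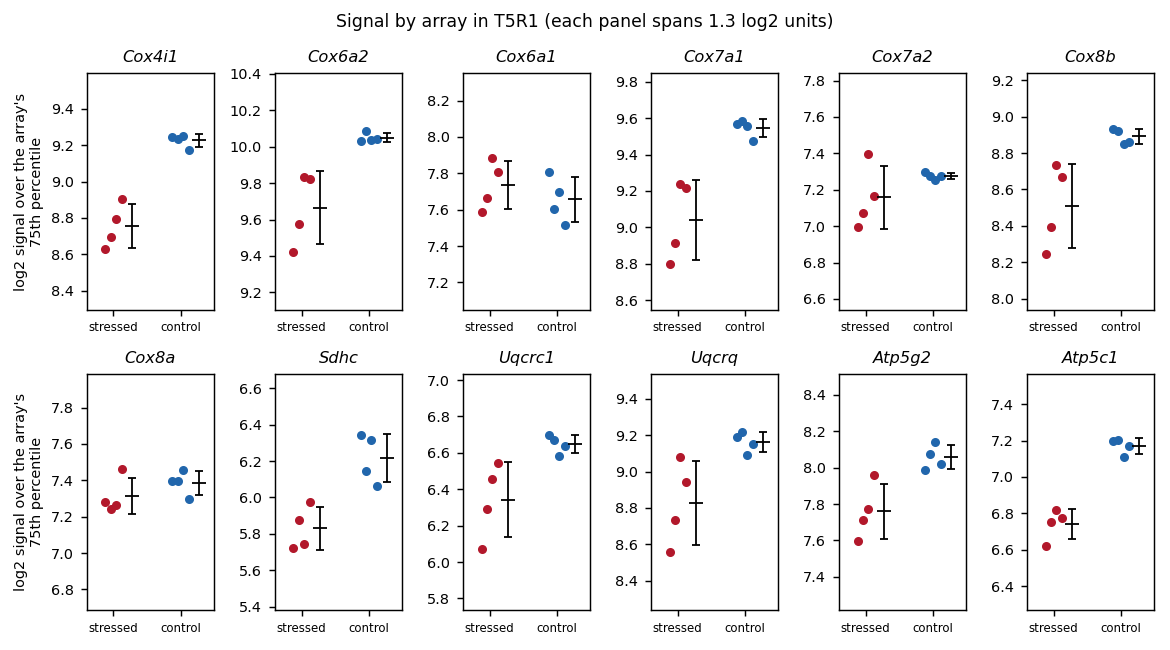
Log2 signal relative to the 75th percentile of the array for 12 genes in T5R1, 1 point per heart, stressed in red on the left and control in blue on the right, with mean ± SD (n = 4 each). Cox4i1, Cox6a2, Cox7a1 and Cox8b separate without overlap, as do Sdhc, Uqcrc1, Uqcrq, Atp5g2 and Atp5c1. The partners Cox6a1, Cox7a2 and Cox8a overlap.

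In complex V the called genes covered the catalytic head (Atp5a1 and Atp5b, the alpha and beta subunits) and the central stalk (Atp5e, the epsilon subunit). They also covered the rotating c ring (Atp5g2 and Atp5g3) and the membrane subunit e (Atp5k). The median over the 15 complex V genes was -0.26. Atp5g2 measured 7.60, 7.71, 7.78 and 7.96 in the stressed hearts and 7.99, 8.08, 8.14 and 8.02 in the control hearts. Atp5k, which helps ATP synthase dimers form, measured 8.15, 8.13, 8.42 and 8.47 in the stressed hearts and 8.58, 8.58, 8.66 and 8.61 in the control hearts. Atp5b, which holds the catalytic sites, measured 9.06, 9.23, 9.42 and 9.32 in the stressed hearts and 9.54, 9.59, 9.39 and 9.55 in the control hearts. The groups did not overlap for Atp5g2 and Atp5k, and for Atp5b stressed replicate 3 lay above control replicate 3. Atp5g2 fell by 0.30 ± 0.08 (limma adjusted p = 0.0106), Atp5k by 0.32 ± 0.10 (adjusted p = 0.0267) and Atp5b by 0.26 ± 0.08 (adjusted p = 0.0278). Atp5a1, Atp5e and Atp5g3 fell by 0.28 to 0.33, with limma adjusted p from 0.0324 to 0.0438.

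The 3 c-subunit genes, Atp5g1, Atp5g2 and Atp5g3, encode the same mature protein with different import sequences. Atp5g1 measured 9.14, 9.29, 9.66 and 9.48 in the stressed hearts and 9.59, 9.60, 9.59 and 9.55 in the control hearts. Its change of -0.19 did not pass (limma adjusted p = 0.152). Atp5g3 measured 8.87, 9.05, 9.37 and 9.18 in the stressed hearts and 9.46, 9.47, 9.32 and 9.39 in the control hearts. In both genes stressed replicate 3 reached into the control range. The signals of Atp5g1 over Atp5g3 and of Atp5g2 over Atp5g3 within an array changed by 0.10 (exact permutation p = 0.0571) and -0.005 (exact permutation p = 0.971).

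Atp5c1, the gamma subunit that turns inside the catalytic head, gave a call that depended on the probe and on which arrays were in the fit. In T5R1 its brighter probe measured 6.62, 6.76, 6.82 and 6.78 in the stressed hearts and 7.20, 7.21, 7.11 and 7.17 in the control hearts. Tested probe by probe over all 32 arrays, the second probe changed by -0.31 and passed (limma adjusted p = 0.00731). Under quantile normalisation that probe changed by -0.20 and did not pass (adjusted p = 0.0715). The groups of the brighter probe lay far apart, yet its change of -0.43 ± 0.27 did not pass over all 32 arrays (limma adjusted p = 0.296). That fit pools the spread over groups. In T5R10 the same probe measured 4.31, 4.21, 6.31 and 6.02 in the stressed hearts and 6.11, 6.09, 6.22 and 6.08 in the control hearts. Both low values came from stressed replicates 1 and 2, arrays that the scanner software had marked for evaluation. The second probe gave 5.52, 5.46, 5.62 and 5.47 in the stressed hearts and 5.49, 5.39, 5.54 and 5.57 in the control hearts, with no such dip. Without the 8 T5R10 arrays, a choice made after these values were seen, the T5R1 change of the brighter probe had a standard error of 0.07. It then passed (limma adjusted p = 0.000663, and 0.00765 under quantile normalisation). With T5R1 fitted alone, the brighter probe also passed (limma adjusted p = 0.0208, and 0.0393 under quantile normalisation).

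The number of genes called in T5R1 leaned on single arrays. Without stressed replicate 1, limma called 4 of the 49 genes lower, Cox4i1, Cox6a2, Cox7a1 and Cox8b, and these were also the 4 genes called in all 8 fits that left out 1 T5R1 array. Without stressed replicate 2 the count was 9, without control replicates 1, 2, 3 and 4 it was 10, 10, 11 and 10, and without stressed replicates 3 and 4 it was 25 and 19. Shares of all tested genes called in these fits are not given. The counts thus do not show whether the shift is particular to the 49 genes. The median of the 49 genes in each array, relative to the control mean of each gene, was -0.42, -0.29, -0.06 and -0.11 in the stressed hearts and 0.02, 0.01, 0.005 and -0.02 in the control hearts. Stressed replicates 1 and 2, which lay lowest, were also the 2 arrays with the highest 75th percentile signal in T5R1. Under quantile normalisation the medians were -0.06, 0.04, -0.03 and -0.06 in the stressed hearts and 0.05, -0.02, -0.04 and 0.02 in the control hearts, which overlap.

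**Figure D3:**
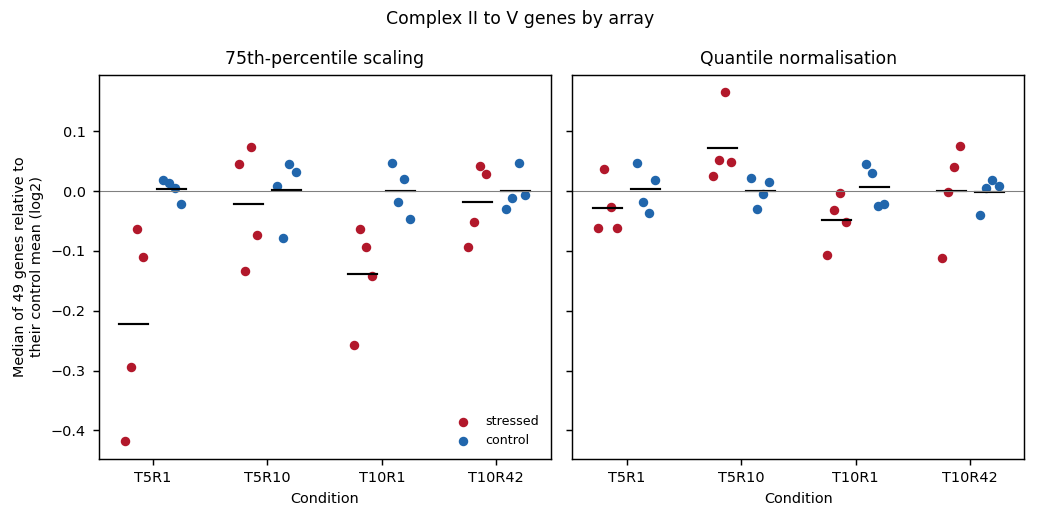
Median over the 49 genes of the log2 difference from the control mean, 1 point per array, in the 4 conditions under both scalings, with stressed arrays left of control arrays and black bars at the group means. Under 75th percentile scaling the T5R1 stressed arrays lie at -0.42 to -0.06, all below their controls.

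Brightness moved with the change. Among the brightest 1% of genes on these arrays, 26.8% were called lower in T5R1 with a median of -0.22, and among the brightest 5%, 18.1% with a median of -0.15. Of the 49 genes 34.7% were called lower, with a median of -0.23, and 25 of them are in the first bin and 43 in the second. Under quantile normalisation 1.81% of the brightest 1% and 5.01% of the brightest 5% were called lower, with medians of -0.004 and -0.01. The part of brightness in the result was not tested. Under 75th percentile scaling, all 17 genes with more than 1 probe had probes changing in the same direction. In 14 of them the probes lay within 0.3 of each other. Under quantile normalisation the probes of some of these genes went in opposite directions. Among them were Uqcr10, with probes from -0.28 to 0.05, and Sdhc, at -0.27 and 0.02. Tested probe by probe, 23 of 74 probes (31.1%) were called lower under 75th percentile scaling, against 7.42% of all 38824 probes tested. Under quantile normalisation 3 of 74 (4.05%) were, against 3.19% of all probes. The Uqcrc2 probe was printed 10 times on each array, and the SD of its spots within an array had a median of 0.05, which measures the array and not the spread between mice.

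**Figure D4:**
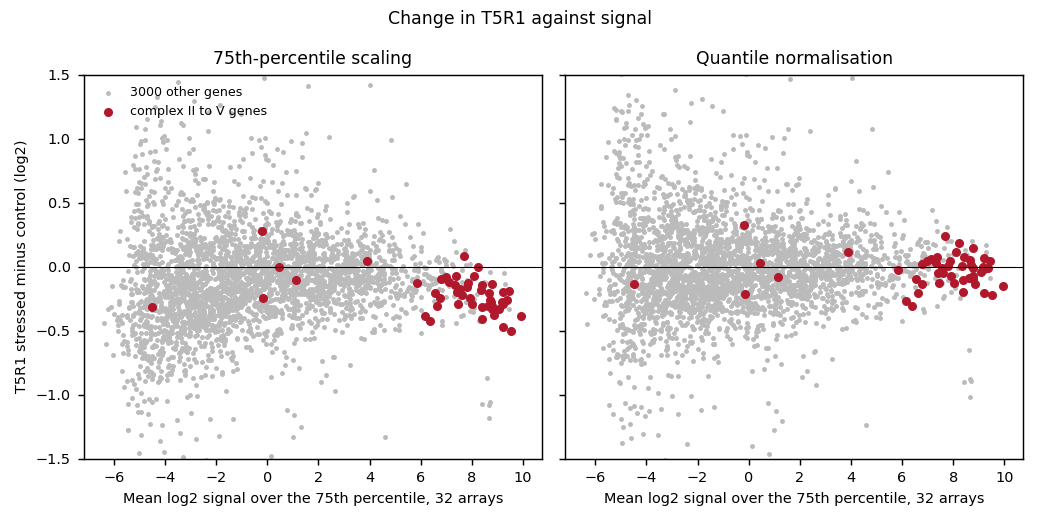
Stressed minus control change in T5R1 (log2) against the mean log2 signal, for the 49 genes and for 3000 other genes drawn at random, under both scalings. The 49 genes gather at the bright end, mostly below 0 under 75th percentile scaling and around 0 under quantile normalisation; 25 and 28 of the other genes lie outside the plotted range.

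The isoform pairs of complex IV were compared within each array, where any constant used to scale an array cancels. A shift that varies with brightness does not cancel, and the heart and muscle isoforms had the brighter probes. The mean signals were 9.93 for Cox6a2 and 7.69 for Cox6a1, 9.52 for Cox7a1 and 7.12 for Cox7a2, and 8.85 for Cox8b and 7.36 for Cox8a. The part of brightness in the ratios was not tested. Only the change of a ratio between groups is read, not its level. In T5R1, Cox6a2 over Cox6a1 was 1.83, 1.91, 1.95 and 2.02 in the stressed hearts and 2.22, 2.48, 2.34 and 2.53 in the control hearts (log2). Cox7a1 over Cox7a2 was 1.80, 1.84, 1.84 and 2.05 in the stressed hearts and 2.27, 2.31, 2.30 and 2.20 in the control hearts. In both pairs the heart and muscle isoform was lower against its ubiquitous partner in every stressed heart than in any control. The changes were -0.47 and -0.39, each with an exact permutation p of 0.0286 (two-sided), the smallest that 4 against 4 allows, and 0.131 after Benjamini-Hochberg adjustment over the 32 ratio tests. Cox8b over Cox8a was 0.96, 1.15, 1.47 and 1.21 in the stressed hearts and 1.54, 1.53, 1.39 and 1.56 in the control hearts. Stressed replicate 3 overlapped the controls in that pair, and its change was -0.31 (exact permutation p = 0.0571, adjusted 0.166). Under quantile normalisation the Cox6a2 ratio changed by -0.40 without overlap (exact permutation p = 0.0286, adjusted 0.305). The Cox7a1 ratio changed by -0.28 with overlap (exact permutation p = 0.0571, adjusted 0.365). The Cox8b ratio changed by -0.21 with overlap (exact permutation p = 0.143, adjusted 0.582).

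The ubiquitous partners of the heart and muscle isoforms did not pass the test. Cox6a1 measured 7.59, 7.67, 7.88 and 7.81 in the stressed hearts and 7.81, 7.61, 7.70 and 7.52 in the control hearts. Cox7a2 measured 6.998, 7.07, 7.40 and 7.17 in the stressed hearts and 7.30, 7.28, 7.26 and 7.27 in the control hearts. Cox8a measured 7.28, 7.24, 7.27 and 7.46 in the stressed hearts and 7.40, 7.40, 7.46 and 7.30 in the control hearts. All 3 overlapped between groups (limma adjusted p of 0.657, 0.386 and 0.497). Cox4i2, the oxygen-responsive isoform of subunit 4, measured 0.84, 0.97, 1.03 and 1.26 in the stressed hearts and 1.06, 1.08, 1.27 and 1.12 in the control hearts. With Cox4i1 lower, Cox4i2 over Cox4i1 was higher in all 4 stressed hearts, by 0.36 (exact permutation p = 0.0286, adjusted 0.131). Under quantile normalisation it changed by 0.13 with overlap.

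After 10 days of exposure the Cox7a1 over Cox7a2 ratio separated in both conditions, in opposite directions. In T10R1 it was 2.11, 2.18, 2.32 and 2.30 in the stressed hearts and 1.69, 2.05, 2.00 and 1.96 in the control hearts. The stressed hearts were higher by 0.30 (exact permutation p = 0.0286, adjusted 0.131), and by 0.32 without overlap under quantile normalisation. In T10R42 it was 2.59, 2.73, 2.42 and 2.61 in the stressed hearts and 2.84, 3.03, 2.73 and 2.94 in the control hearts. The stressed hearts were lower by 0.30 (exact permutation p = 0.0286, adjusted 0.131), with highest stressed and lowest control values close together, and by 0.17 with overlap under quantile normalisation. The remaining ratios without overlap were Cox4i2 over Cox4i1 in T10R42, higher by 0.25 (0.13 without stressed replicate 1, and 0.17 with overlap under quantile normalisation), and Cox6b2 over Cox6b1 in T10R1, higher by 0.36. None of the 32 ratio tests passed after adjustment.

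**Figure D5:**
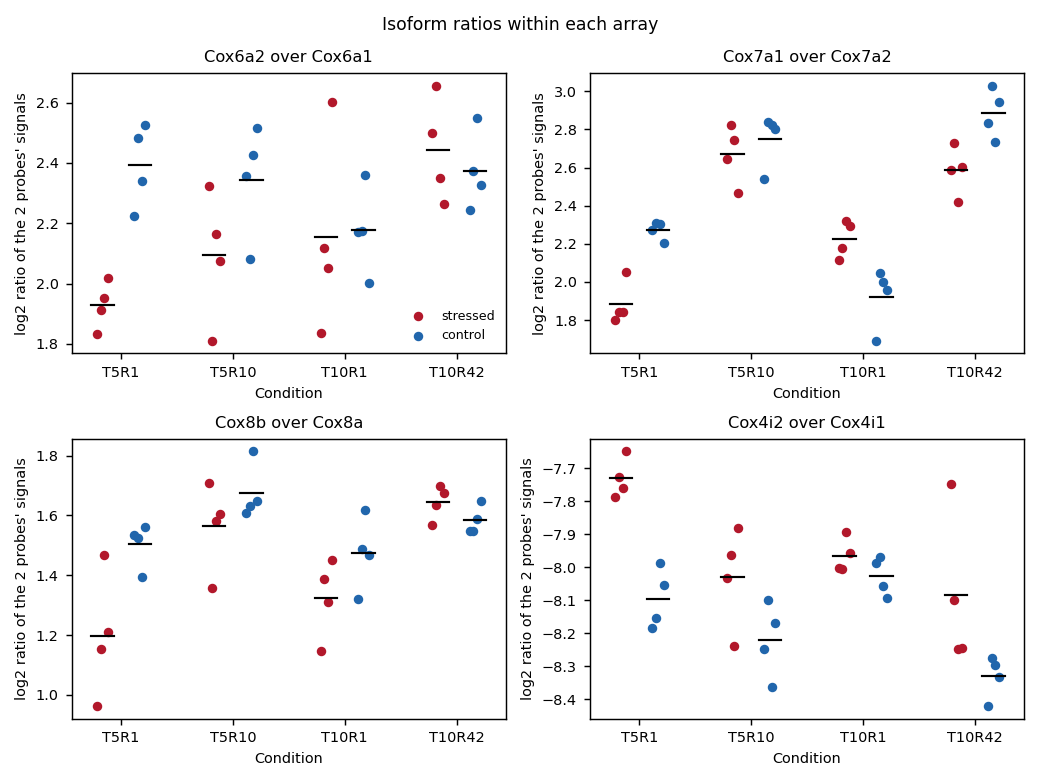
Log2 ratio of the heart and muscle isoform, or of Cox4i2, to its partner in each heart under 75th percentile scaling, for 4 pairs and 4 conditions, with stressed points left of control points. In T5R1 the ratios with Cox6a2 and Cox7a1 on top lie lower in stressed hearts, by 0.47 and 0.39, with no overlap.

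In T10R1, 1 day after 10 days of exposure, most genes of these complexes were measured lower but none passed the test. Of the 49 genes, 0 were called by limma, where 0.36% of all tested genes were called lower and 0.774% higher, and 15 were lower at an unadjusted p under 0.05 (30.6%, against 6.76% of all tested genes). The median was -0.16 over the 49 genes and 0.00 over all tested genes, and 45 of 49 were measured lower (91.8%, against 50% of all tested genes). The stressed arrays all lay below the controls in 17 genes, 34.7% of them, against 5.48% of all tested genes. Under quantile normalisation the median was -0.06 against 0.006 over all tested genes, with 36 genes measured lower (73.5%, against 48.5% of all tested genes). Of the 49 genes 7 lay below their controls without overlap (14.3%), where 4.26% of all tested genes did. The medians were -0.24 in complex II, -0.17 in complex III, -0.09 in complex IV and -0.14 in complex V. The brightest 1% of genes had a median of -0.09.

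The smallest p-values in T10R1 belonged to complexes III and V. Uqcrc1 measured 6.46, 6.32, 6.53 and 6.54 in the stressed hearts and 6.80, 6.84, 6.73 and 6.71 in the control hearts. Uqcrfs1, the Rieske iron-sulfur protein, measured 7.38, 7.59, 7.44 and 7.29 in the stressed hearts and 7.75, 7.65, 7.83 and 7.69 in the control hearts. Atp5f1, subunit b of the peripheral stalk, measured 6.61, 6.80, 6.69 and 6.63 in the stressed hearts and 7.04, 6.98, 7.03 and 6.96 in the control hearts. None of the 3 overlapped between groups, and their changes were -0.31 ± 0.08 (limma adjusted p = 0.0639), -0.31 ± 0.09 (adjusted p = 0.101) and -0.32 ± 0.10 (adjusted p = 0.122). Other settings called 1 of the 49 genes in T10R1: Uqcrfs1 with another background correction (normexp), Uqcrc1 with only probes above background on all arrays, and Atp5f1 without the marked arrays or without T5R10. Atp5e, Atp5j, Sdha, Sdhd, Uqcrc1 and Uqcrfs1 lay below their controls without overlap in both T5R1 and T10R1, 27.3% of the 22 genes and 35.3% of the 17. Among the 49 genes that was 12.2%, and among all tested genes 1.32% lay below their controls in both. Under quantile normalisation 0 of the 49 did, against 0.752% of all tested genes.

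The change in Cox4i1 and Cox7a1 differed between the 2 conditions with 1 day of rest. In T10R1 Cox4i1 measured 8.93, 9.06, 9.11 and 9.10 in the stressed hearts and 9.14, 9.02, 9.14 and 8.95 in the control hearts. Cox7a1 measured 9.15, 9.38, 9.47 and 9.45 in the stressed hearts and 9.08, 9.42, 9.41 and 9.27 in the control hearts. Both overlapped between groups in T10R1. The T10R1 change minus the T5R1 change was 0.46 ± 0.10 for Cox4i1 (limma adjusted p = 0.034) and 0.58 ± 0.13 for Cox7a1 (adjusted p = 0.0453). They were the 2 of 49 genes called in that contrast, where 0.36% of all tested genes were called higher. No gene of the 49 was called lower, where 0.232% of all tested genes were. Under quantile normalisation neither passed (limma adjusted p of 0.192 and 0.0614), with 0 of 49 genes called, where 0.218% of all tested genes were called lower and 0.0472% higher. When single arrays of these conditions were left out, the count stayed at 2 without T10R1 control replicate 3, T10R1 stressed replicate 1 or T5R1 stressed replicate 4, and was 0 or 1 without any other. The T10R1 slide was scanned on another day than the rest, and slide and condition are the same factor.

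In T5R10, 10 days after 5 days of exposure, 0 of 49 genes were called, where 0.0545% of all tested genes were called lower and 0.0218% higher, and 4 were lower at an unadjusted p under 0.05 (8.16%, against 7.47% of all tested genes). The median was -0.03 over the 49 genes and -0.02 over all tested genes. Under quantile normalisation 0 were called, where 0.134% of all tested genes were called lower and 0.178% higher. The median was then 0.06 over the 49 genes and 0.01 over all tested genes. Of the 49 genes 41 were measured higher, against 14261 of all 27532 tested genes. The smallest p-values were those of Atp5c1, given above, and Atp5o, the stalk subunit OSCP. Atp5o measured 5.96, 5.49, 7.25 and 7.22 in the stressed hearts and 7.20, 7.11, 7.23 and 7.21 in the control hearts. The low values were again the marked stressed replicates 1 and 2, and the change was -0.71 ± 0.23 (limma adjusted p = 0.167). Without the marked arrays Atp5o changed by 0.05 and Atp5c1 by 0.03. Of all tested genes, 17 (0.0618%) lay more than 1 log2 unit lower on both these arrays than on the other 6, and 2 of them were Atp5c1 and Atp5o. Uqcrq, next in p, measured 9.01, 8.74, 9.17 and 8.995 in the stressed hearts and 9.15, 9.11, 9.23 and 9.26 in the control hearts (change -0.21, limma adjusted p = 0.299).

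The T5R10 change minus the T5R1 change passed for 1 of 49 genes, Atp5g2, where 1.18% of all tested genes were called higher and 1.31% lower. Atp5g2 measured 8.10, 7.93, 8.22 and 8.09 in stressed T5R10 hearts and 8.04, 7.96, 7.87 and 8.06 in control T5R10 hearts. The groups overlapped in T5R10, and the difference from T5R1 was 0.40 ± 0.11 (limma adjusted p = 0.0452). Under quantile normalisation 0 of 49 passed, where 0.41% of all tested genes were called higher and 1.35% lower. The count was 0 without T5R1 control replicate 1, 2 or 3, T5R1 stressed replicate 1 or 2, T5R10 control replicate 1 or 2, or T5R10 stressed replicate 1 or 3, and from 1 to 4 without any other array of these conditions.

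In T10R42, 42 days after 10 days of exposure, 0 of 49 genes were called, where 0.61% of all tested genes were called lower and 0.287% higher, and 2 were lower at an unadjusted p under 0.05 (4.08%, against 11.6% of all tested genes). The median was -0.02 over the 49 genes and -0.03 over all tested genes. Cox4i1 measured 9.31, 9.32, 9.25 and 9.27 in the stressed hearts and 9.43, 9.45, 9.51 and 9.48 in the control hearts. Cox6b2 measured -0.20, -0.23, -0.46 and -0.49 in the stressed hearts and -0.01, 0.09, -0.01 and 0.05 in the control hearts. Both lay below their controls without overlap, and neither passed, with changes of -0.19 (limma adjusted p = 0.153) and -0.38 (limma adjusted p = 0.212). Cox4nb measured 0.55, 0.28, 0.62 and 0.65 in the stressed hearts and 0.30, 0.23, 0.42 and 0.39 in the control hearts (change 0.19, limma adjusted p = 0.284), with 1 stressed heart among the controls. With Cox7a1, Cox4i1 and Cox6b2 made 3 genes below their controls without overlap, 6.12% of the 49, against 7.3% of all tested genes.

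The T10R42 change minus the T10R1 change passed for 1 of 49 genes, Atp5f1, where 1.89% of all tested genes were called higher and 2.23% lower. In T10R42 Atp5f1 measured 6.87, 6.79, 6.93 and 6.77 in the stressed hearts and 6.49, 6.62, 6.80 and 6.68 in the control hearts. The stressed hearts were mostly higher there and all lower in T10R1, and the difference was 0.51 ± 0.14 (limma adjusted p = 0.0401, and 0.0525 under quantile normalisation, where 0 of 49 passed and 0.901% of all tested genes were called higher and 1.06% lower). The count was 2 without stressed replicate 2 of T10R1 or of T10R42, 1 without T10R42 control replicate 3 or stressed replicate 1 or 4, and 0 without any other array of these conditions.

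Genes that work beside these complexes were read from lists. In T5R1 8.43% of all tested genes were called lower, and 4.01% under quantile normalisation. Assembly factors, which insert metal centres and build the complexes, had a median of -0.03 in T5R1, and limma called 0 of 36. The smallest p-values were those of Sco2, a copper chaperone of complex IV, at -0.25 (limma adjusted p = 0.0638), and Coa7 at 0.27 (limma adjusted p = 0.0804). Of the 7 core subunits of complex I, the entry point for NADH, 3 fell (Ndufs1 by 0.46, Ndufv1 by 0.36 and Ndufs7 by 0.36) and the median was -0.36. Of 14 citrate cycle genes 9 fell, among them the isocitrate dehydrogenases Idh3g by 0.47 and Idh2 by 0.48 and citrate synthase Cs by 0.35, and the median was -0.32. Of 19 genes of the mitochondrial membranes 4 fell, led by the outer membrane channel Vdac1 by 0.38, and the median was -0.13. Under quantile normalisation 1 complex I gene, 1 citrate cycle gene and 0 membrane genes were called lower.

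Regulators of mitochondrial genes were lower in part. In T5R1 5 of 22 fell: the nuclear receptor Esrrb by 0.38, the muscle coactivator Perm1 by 0.46, Ppargc1a (PGC-1 alpha, the coactivator of mitochondrial biogenesis) by 0.50 (limma adjusted p = 0.0072), the fatty acid receptor Ppara by 0.51, and Ppard by 0.26. The median over the 22 was -0.06, and 4 were called lower under quantile normalisation, Ppargc1a among them at -0.41 (limma adjusted p = 0.0173). Esrra, the estrogen-related receptor partner of PGC-1 alpha, changed by -0.13 (limma adjusted p = 0.317). In T10R1 1 citrate cycle gene fell, the succinate-CoA ligase Sucla2 by 0.35 (limma adjusted p = 0.0281), which was not called under quantile normalisation, and 0 genes of the other 4 lists were called. Of all tested genes 0.36% were called lower in T10R1. There the medians were -0.20 in the citrate cycle, -0.18 in complex I, -0.14 in the regulators, -0.13 in the membrane genes and -0.09 in the assembly factors, with all 14 citrate cycle genes and all 7 complex I genes measured lower. Ppargc1a changed by -0.20 (limma adjusted p = 0.509) and Esrra by -0.19 (limma adjusted p = 0.342) in T10R1. In T5R10 and T10R42 limma called 0 genes of the 5 lists.

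Markers of other cell types moved in the same hearts. Of all tested genes 5.3% were called higher and 8.43% lower in T5R1. In T5R1 the mean level of 11 fibroblast markers was 3.83 to 4.82 in stressed and 2.88 to 3.11 in control hearts, and 6 of them rose. The mean of 12 macrophage and monocyte markers was 0.42 to 1.26 in stressed and 0.09 to 0.25 in control hearts, and 7 rose. The mean of 9 markers of dividing cells was -1.34 to -0.77 in stressed and -3.26 to -2.93 in control hearts, and 8 rose. Of 6 erythroid markers 3 rose, with means of 3.35 to 5.50 in stressed and 2.30 to 3.06 in control hearts, and of 9 endothelial markers 0 were called. The mean of 15 cardiomyocyte markers was 8.44, 8.54, 8.75 and 8.73 in stressed and 8.80, 8.80, 8.79 and 8.76 in control hearts. It was lowest in stressed replicates 1 and 2, as the respiratory genes were, its median change was -0.19, and 1 of the 15, Tnni3, fell. Under quantile normalisation the median of these 15 markers was -0.002, Tnni3 did not pass, and 0 were called lower and 1 higher. Brown adipocytes and skeletal muscle share some of these isoforms. The mean of 9 brown adipocyte markers was 1.00 to 3.21 in stressed and 2.49 to 3.32 in control hearts. Their median change was -0.50, and 7 of 9 were measured lower. By limma 1 was called higher and 1 lower, the latter Ppargc1a, already counted among the regulators above. Ucp1, the defining marker, well above background on 27 of 32 arrays, measured 1.78, 1.31, -6.00 and 3.06 in stressed and 2.97, 1.24, -0.29 and -0.74 in control hearts of T5R1. Of 9 skeletal muscle markers 2 fell and 1 rose, with means of 0.38 to 0.82 in stressed and 0.50 to 0.65 in control hearts. Acta1 and Ckm on that list are also expressed in heart muscle cells. The part of these cell types in the result was not tested.

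In T10R1 the fibroblast markers averaged 3.71 to 4.47 in stressed and 2.98 to 3.04 in control hearts, with 7 of 11 rising. Of 12 macrophage and monocyte markers 1 rose, and of 9 markers of dividing cells 1 rose. Of all tested genes 0.774% were called higher in T10R1. The cardiomyocyte markers averaged 8.50 to 8.64 in stressed and 8.62 to 8.78 in control hearts, with 0 of 15 called. Brown adipocyte markers averaged 1.13 to 2.81 in stressed and 2.64 to 3.44 in control hearts, with Dio2 called higher, though not under quantile normalisation. Skeletal muscle markers averaged 0.16 to 0.28 in stressed and -0.06 to 0.13 in control hearts without overlap. Their median change was 0.12, and only 6 of the 9 were above background on all arrays. The 1 of 9 called higher was Acta1, which is also expressed in heart muscle cells. Ucp1 was -2.68, -0.69, 1.22 and -6.88 in stressed and 1.47, 1.26, 1.83 and 3.48 in control hearts, lower in every stressed heart than in any control. Their part in the T10R1 values was not tested. In T5R10 and T10R42 limma called 0 genes of the 8 marker lists.

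Promoters were read because subunits of several complexes fell in T5R1. RefSeq promoter sequences of GRCm38.p6 matched 38 of the 50 genes, and the 250 bases before each start were searched on both strands for 5 motifs that may overlap. The palindromic motif of NRF1, a factor known to control respiratory genes, lay in 7 of the 38 (18.4%) and in 4.23% of 27025 genes: Atp5c1, Atp5g2, Atp5h, Atp5k, Cox6a1, Sdha and Sdhd. The ETS motif CCGGAAG, bound by GABP, lay in 9 of the 38 (23.7%) and in 7.83% of all genes. The estrogen-related receptor motif AAGGTCA lay in 5.3% against 4.7%, the YY1 motif AANATGGC in 5.3% against 4.49%, and the MEF2 motif in 2.6% against 3.7%. A match describes letters only. The promoters below are those of the 2 called complex V genes with the NRF1 motif, in capitals, and of the Cox7a isoforms, which held none of the 5 motifs.
Atp5g2, GRCm38.p6 chr15:102671048-102671297, minus strand, motif starting 42 bases before the start: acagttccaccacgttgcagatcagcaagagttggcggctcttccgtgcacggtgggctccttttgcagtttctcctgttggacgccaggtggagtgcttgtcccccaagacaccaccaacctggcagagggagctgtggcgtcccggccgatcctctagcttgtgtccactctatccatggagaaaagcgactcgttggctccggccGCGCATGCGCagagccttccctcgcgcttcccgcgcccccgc
Atp5k, GRCm38.p6 chr5:108434400-108434649, minus strand, motif starting 50 bases before the start: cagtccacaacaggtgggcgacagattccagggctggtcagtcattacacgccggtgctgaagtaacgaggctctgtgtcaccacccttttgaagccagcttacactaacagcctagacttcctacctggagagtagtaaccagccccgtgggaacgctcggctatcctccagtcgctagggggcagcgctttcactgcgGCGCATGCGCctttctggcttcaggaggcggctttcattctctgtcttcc
Cox7a1, GRCm38.p6 chr7:30183921-30184170, plus strand: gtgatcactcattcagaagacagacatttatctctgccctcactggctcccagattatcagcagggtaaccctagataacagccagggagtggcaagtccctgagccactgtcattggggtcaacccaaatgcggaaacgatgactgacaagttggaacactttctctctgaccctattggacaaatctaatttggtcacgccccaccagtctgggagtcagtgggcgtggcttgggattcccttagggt
Cox7a2, GRCm38.p6 chr9:79759854-79760103, minus strand: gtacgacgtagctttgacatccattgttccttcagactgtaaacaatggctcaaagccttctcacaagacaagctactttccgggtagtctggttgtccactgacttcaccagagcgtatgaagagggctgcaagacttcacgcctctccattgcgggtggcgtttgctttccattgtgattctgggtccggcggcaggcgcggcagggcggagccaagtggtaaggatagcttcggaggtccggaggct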

How the data were processed

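Heart RNA of 32 mice was measured on 1-colour Agilent arrays. The deposited scanner output gives the intensity of each spot after background subtraction in Feature Extraction 10.7.3.1, per the file headers. The scanner output also holds other values, flags of 0 or 1 per spot, as deposited by the authors (well above background, saturated, outlier). The authors' deposited value table holds log2 values whose medians were 5.85, 6.03, 6.22 and 6.26 on the 4 slides, and which followed the log2 mean spot signal (correlation 0.99951 to 0.99997). It is not centred by gene and runs in the direction of the signal, how it was scaled is not given in the sources used here, and it served as an alternative.

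Control spots (3671 of 62976) and 5470 outlier spot values were left out. The processed signal was put on the log2 scale and set against the 75th percentile of its array, with quantile normalisation reported beside it. A probe was kept if well above background on at least 3 of 4 arrays of a group and missing on at most 4 arrays, and the brightest of a gene's kept probes was used. limma 3.58.1 (R 4.3.3, with the data.table package, version 1.17.8) fitted 8 group means over 32 arrays (24 residual and 2.28 prior degrees of freedom), with two-sided tests and Benjamini-Hochberg adjustment over 27532 genes at 0.05. Isoform ratios used exact permutation tests over 70 splits. The fit was tested on simulated data. The number of arrays limits the precision.

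Genes with values per array were, in T5R1, the complex II genes and the 3 with the smallest p in complex III with cytochrome c, complex IV and complex V; the 3 with the smallest p elsewhere; isoform pairs; members called under both scalings; and members with a sign opposite to the median. Other members are given by range or count, and Uqcrb, Cox7c, Cyc1, Cycs, Cox5a, Cox5b, Atp5c1 in T5R1 and members whose change differed between conditions were added after their values were seen. The members and lists were chosen with earlier results of these data known, so nothing here is independent of them. Alternatives covered scaling, background correction, the authors' table, filters, choice of probe, arrays in the fit, slide row, replicate block and leaving out each array. Gene symbols, promoter sequences and their build GRCm38.p6 come from RefSeq; no entry was found for 12 promoters.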

Additional observations from a re-analysis of the deposited data

Results flagged for a closer look

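Of 70 groups of 4 arrays examined for the genes named by array, 2 held a value far from the rest, and chance alone marks about 1 in 20 such groups. Cox6b2 in T5R1 stressed hearts was 0.55 in replicate 3, where the nearest of the others was -0.44, so that the gap took 0.882 of the range. Cox8a in T5R1 stressed hearts was 7.46 in replicate 4, where the nearest was 7.28, a gap of 0.83 of the range.

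The effect of stress differed between conditions for 4 members by limma's test of the difference. From T5R1 to T10R1 the difference of the changes (T10R1 minus T5R1) was 0.46 for Cox4i1 and 0.58 for Cox7a1. The T5R10 change minus the T5R1 change was 0.40 for Atp5g2, and the T10R42 change minus the T10R1 change was 0.51 for Atp5f1. None of these 4 passed under quantile normalisation. Slide and condition are the same factor, so they cannot be told apart from a slide effect on the stress contrast.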

How the results depend on the processing

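Counts below are members called by limma, of 17 in T5R1, 0 in T10R1, 1 for T5R10 minus T5R1, 1 for T10R42 minus T10R1 and 2 for T10R1 minus T5R1; the cause of each shift was not tested. Quantile normalisation gave 1 in T5R1 and 0 for each of the 3 differences, with medians of -0.019 in T5R1, 0.063 in T5R10 and -0.061 in T10R1. Without the 8 T5R10 arrays, chosen after seeing the data, it gave 1 in T5R1 (Atp5c1, with Cox7a1 at an adjusted p of 0.0541), medians of -0.019 in T5R1 and -0.061 in T10R1, 2 for T10R42 minus T10R1 and 0 for T10R1 minus T5R1. A 75th percentile over probes above background on all arrays gave a T10R42 median of -0.071, and 0 for T5R10 minus T5R1 and for T10R42 minus T10R1. Normexp gave 11 in T5R1, 1 in T10R1, 0 for T5R10 minus T5R1, 3 for T10R42 minus T10R1 and 0 for T10R1 minus T5R1. The authors' deposited table gave 1 in T5R1 with a median of -0.061, and 0 for T5R10 minus T5R1 and for T10R1 minus T5R1. With no filter on dim probes all 3 differences gave 0. Only probes above background on all arrays gave 1 in T10R1, 3 for T5R10 minus T5R1 and 2 for T10R42 minus T10R1. T5R10 minus T5R1 gave 0 with every probe fitted on its own, with the mean of a gene's probes and with the 2 conditions fitted alone, and T10R1 minus T5R1 gave 1 with every probe on its own. T5R1 fitted alone gave 4. Slide row as a covariate gave 2 for T10R42 minus T10R1. T10R1 gave 1 without the arrays marked for evaluation and without T5R10, which also gave 2 for T10R42 minus T10R1. Shares of all tested genes called are given above for quantile normalisation over all arrays. For the other settings, and with single arrays left out, they are not given.

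Replicate numbers did not pair the samples (correlations of deviations -0.266 to 0.214, with 5 of 16 over 0.1). A replicate block gave 12 in T5R1 and 0 for each of the 3 differences. Leaving out each array gave 4 to 25 in T5R1, 0 to 1 in T5R10, 0 in T10R1 and T10R42, 0 to 4 for T5R10 minus T5R1, 0 to 2 for T10R42 minus T10R1 and 0 to 2 for T10R1 minus T5R1. The 1 call in T5R10 came without stressed replicate 3. The medians then ran from -0.276 to -0.152 in T5R1, -0.064 to 0.001 in T5R10, -0.178 to -0.109 in T10R1 and -0.034 to 0.011 in T10R42.

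These changes turned direction. Under quantile normalisation 16 of the 49 genes turned in T5R1, all to higher, and 20 in T5R10, 9 in T10R1 and 4 in T10R42. Among them, with and without T5R10, were Atp5g1 (0.04), Cox7a2 (0.055), Cox8a (0.073) and Cox7b (0.001) in T5R1, and with all arrays Uqcrq (0.023) in T5R10. Cox8a also turned under normexp (0.016) and in the authors' deposited table (0.081), where Cox7b2 did too (0.057). Without the marked arrays Atp5c1 (0.025) and Atp5o (0.053) turned in T5R10, and Atp5sl ran from -0.036 to 0.125 when arrays were left out.

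Ratios also turned. Under quantile normalisation they were Cox4i2 over Cox4i1 (T5R10 -0.038, T10R1 -0.046), Cox7a1 over Cox7a2 (T5R10 0.019), Cox8b over Cox8a (T5R10 0.098) and Atp5g2 over Atp5g3 (T5R10 -0.072, T10R1 -0.048). Under normexp they were Cox4i2 over Cox4i1 (T10R1 -0.023), Atp5g1 over Atp5g3 (T10R1 0.014, T10R42 -0.012), Atp5g2 over Atp5g3 (T5R1 0.008) and Cox7b2 over Cox7b (T10R1 0.065, T10R42 -0.093). In the authors' deposited table they were Cox4i2 over Cox4i1 (T5R10 -0.136, T10R1 -0.05), Cox8b over Cox8a (T5R10 0.032), Atp5g1 over Atp5g3 (T10R42 -0.037), Atp5g2 over Atp5g3 (T10R1 -0.023) and Cox7b2 over Cox7b (T5R1 0.07). With single arrays left out, Cox6a2 over Cox6a1 ran from -0.173 to 0.082 in T10R1 and -0.003 to 0.128 in T10R42, and Atp5g1 over Atp5g3 from -0.037 to 0.025 in T10R1. Atp5g2 over Atp5g3 ran from -0.049 to 0.074 in T5R1, -0.016 to 0.051 in T10R1 and -0.025 to 0.066 in T10R42. Cox7b2 over Cox7b ran from -0.381 to 0.079 in T5R1, -0.838 to 0.001 in T10R1 and -0.049 to 0.336 in T10R42.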
